A study of Mus musculus with 32 samples.

Results

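C1HDT and C1H are 2 of the 8 groups of a transcriptome series on mouse embryonic stem cells (ESCs), and their comparison takes 8 of its 32 libraries, 4 per group, chosen by their labels alone. All libraries came from the line C1, in which both copies of the gene for β-catenin are deleted and which was infected first with a lentivirus for the reverse tetracycline transactivator under the EF1a promoter and then with one for a transgene under a TRE3G promoter. The transgene is β-catenin S33Y, a constitutively active form, fused to mCherry and to a destabilizing domain. Doxycycline (dox) switches the transgene on, and trimethoprim (TMP) keeps the destabilizing domain from sending the protein to degradation. Cells kept in 2i/L, a medium with a GSK3 inhibitor, a MEK inhibitor and leukemia inhibitory factor (LIF), were given 10 μM TMP and 100 ng/mL dox for 48 h, and the fraction with high mCherry was sorted. C1H was collected at that point, as the pluripotent, high group at day 0. C1HDT cells, from the same kind of sort, were plated on gelatin in NDiff227, a medium without 2i or LIF, with both inducers at the same doses, and were collected at day 4. The comparison asks how cells of the high mCherry fraction changed as they left pluripotency while the inducers stayed on. High is relative to a fraction with middle mCherry, and the study puts the total exogenous β-catenin below the level of wild-type cells.

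Both groups lack the endogenous protein and both had seen the inducers, so inducer exposure itself is shared, apart from its length. The medium, the days in culture and the interval since sorting differ together between C1H and C1HDT and cannot be told apart. For the places where the change needs a reference, 5 other groups are used. C1 and C1T are the knockout without dox, sorted for living cells and not by mCherry, at day 0 and at day 4 with TMP alone. C1M and C1MDT are the fraction with middle mCherry, treated as C1H and C1HDT were, and C1HV is the high fraction that differentiated after both inducers were withdrawn. The labels give a serum and LIF medium for all samples, where the methods of the study give 2i/L for these libraries, and the methods are followed here. All groups are cultures of a single cell line, labelled as biological replicates. A figure legend of the study places the 4 samples of a group in the same experiment. The SDs and FDRs here therefore do not measure the spread between independent experiments.

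The libraries were QuantSeq, which reads the 3′ end of polyadenylated transcripts. Between 2127415 and 3005145 uniquely aligned reads fell on genes in these 8 libraries, so 3 counts came to between 0.998 and 1.41 CPM (a gene's counts per 1000000 counts of its library), and a group whose libraries all held 3 counts or fewer is called at the floor. Between 15919 and 16282 genes had a count in the C1H libraries and between 14741 and 15444 in C1HDT. Shares were taken of all reads on genes, outside genes, ambiguous or without a unique alignment. Reads outside annotated genes made up between 10.8% and 11.2% in C1H and between 4.72% and 5.33% in C1HDT. Reads without a unique alignment made up between 50.7% and 51.3% in C1H and between 53.1% and 54.9% in C1HDT. Mitochondrially encoded transcripts took between 2.07% and 2.63% of the counts on genes in C1H and between 0.621% and 0.735% in C1HDT. The nuclear RNA Malat1 and the ribosomal RNA locus Gm42418 were also lower in C1HDT, falling from 11810.0 ± 685 to 1098 ± 100.5 CPM and from 39009 ± 2102 to 12765 ± 2956 CPM (mean ± SD, n = 4, as for every value with ± here). These measures differ between the groups in every library, and their part in the gene results was not tested. Spearman's rho between libraries, across genes, was 0.979 to 0.982 within C1H, 0.978 to 0.981 within C1HDT and 0.900 to 0.911 between the groups.

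ESCs in 2i/L hold the naive state of the pre-implantation epiblast, kept by a network of transcription factors that includes NANOG, ESRRB, KLF4 and TFCP2L1. When the inhibitors and LIF are taken away, ERK signaling resumes, the naive network is dismantled and the cells pass through a formative state marked by OTX2, POU3F1 and the de novo DNA methyltransferases before they take on lineage identity. β-catenin joins TCF and LEF factors on DNA to switch on Wnt target genes, and it also ties cadherins to the cytoskeleton, so the same protein serves transcription and adhesion.

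A gene was tested if it reached 1 CPM in 4 or more of the libraries. Of 15280 such genes, 8517 (55.7%) differed between C1HDT and C1H in edgeR's quasi-likelihood test at a false discovery rate (FDR) under 0.05. Of the tested genes, 4023 (26.3%) were higher and 4494 (29.4%) lower in C1HDT, and these 2 shares are the background for every list below. The share that rose grew with level, as given below, so for lists of abundant genes they are not a background of like level. With a log2 fold change beyond 2 in either direction, 511 genes (3.34%) were higher and 1253 (8.20%) lower. In 7482 genes (49%) the 4 libraries of each group did not overlap. The median size of the called changes was 0.796 on the log2 scale for genes that rose and 1.16 for genes that fell, while the median over all tested genes was -0.064.

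Large decreases were concentrated at low levels. Of the 1253 genes lower by more than 2, 687 had C1HDT at the floor with C1H above it and 32 had both groups at the floor, so their fitted changes depend on the prior count. Of the 511 on the other side, 186 had C1H at the floor and 20 both groups. Among genes with a mean under 3 CPM, 7.71% rose and 23.0% fell, whereas among genes over 100 CPM 51.8% rose and 29.7% fell. Among 502 long intergenic RNA genes 11.0% rose and 30.3% fell, against 27.3% and 29.5% of 14426 protein-coding genes.

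**Figure D1:**
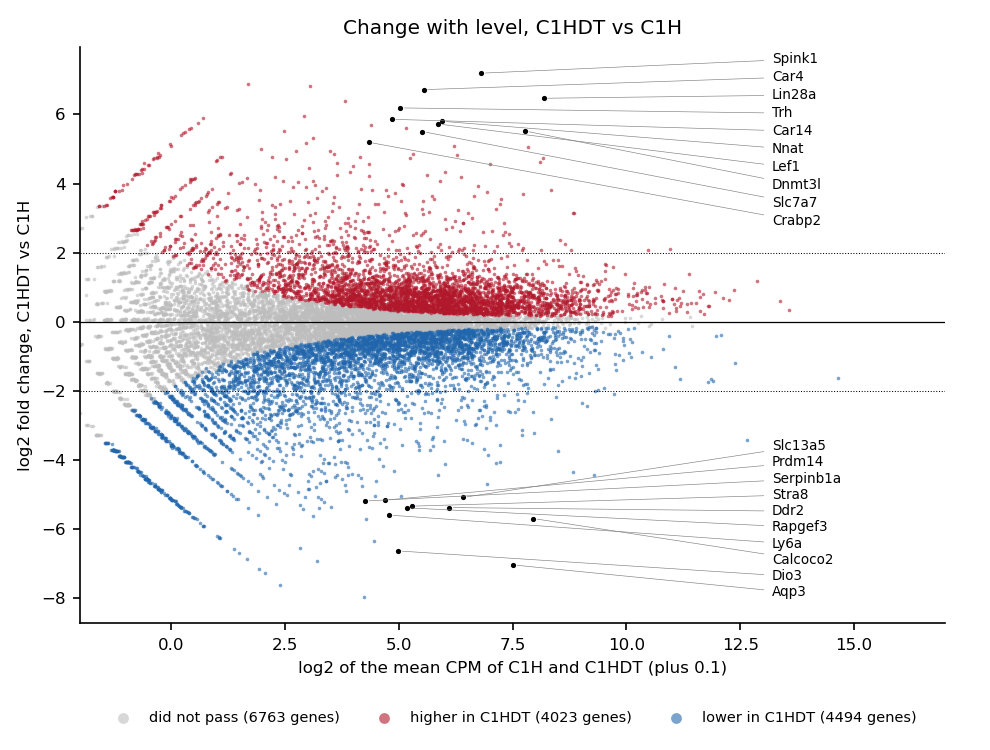
Log2 fold change in C1HDT vs C1H (vertical axis) against the log2 of the mean CPM of both groups (horizontal axis), 1 point per tested gene. Red points mark the 4023 genes called higher and blue points the 4494 called lower, the dotted lines stand at 2 and -2, and the 10 largest increases and decreases among protein-coding genes whose mean log2 CPM reached 3 and whose groups did not overlap are labelled, from Spink1 at 7.20 to Aqp3 at -7.03.

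The largest changes are listed for protein-coding genes whose mean log2 CPM reached 3 over the 8 libraries and whose groups did not overlap, and genes outside these limits can exceed them. The 10 largest such increases mixed genes of pluripotency, lineage and transport. Spink1, a secreted trypsin inhibitor, read 0.681, 0.697, 2.2 and 2.52 CPM in C1H and 212, 223, 219 and 237 CPM in C1HDT (log2 fold change 7.20, SE 0.21, edgeR FDR = 7.88e-41). Lin28a, an RNA-binding protein that blocks maturation of let-7 microRNAs, read 3.41, 8.02, 8.06 and 6.31 CPM in C1H against 503, 633, 575 and 585 CPM in C1HDT (log2 fold change 6.47, SE 0.19, edgeR FDR = 5.78e-22). For these genes, as for all in this list, separate ranges of the 2 groups were a condition for entry. Beside them stood the carbonic anhydrases Car4 (log2 fold change 6.72) and Car14 (5.86), the thyrotropin-releasing hormone precursor Trh (6.19), the imprinted Nnat (5.80), the Wnt effector Lef1 (5.73), the methyltransferase cofactor Dnmt3l (5.52), the amino acid transporter subunit Slc7a7 (5.51) and the retinoic acid binding protein Crabp2 (5.20). At the other end Aqp3, a water and glycerol channel, fell from 334, 409, 377 and 325 CPM to 3.4, 3.34, 2.09 and 2.04 CPM (log2 fold change -7.03, SE 0.17, edgeR FDR = 9.89e-54). Dio3, which inactivates thyroid hormone, fell from 62.5 ± 1.1 CPM to the floor, at least 52.9-fold lower. The other decreases under these limits were Calcoco2, an autophagy receptor (-5.69), the surface antigen Ly6a (-5.59), Rapgef3 (-5.38), the collagen receptor Ddr2 (-5.37), Stra8, a gate to meiosis (-5.33), Serpinb1a (-5.19), the naive factor Prdm14 (-5.16) and the citrate transporter Slc13a5 (-5.08).

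The naive pluripotency list fell nearly as a block, with 16 of 18 genes lower, 1 higher and 1 that did not pass, and a median log2 fold change of -2.31. The summed level of the list was between 8693 and 9041 CPM in the C1H libraries and between 1801 and 2104 in C1HDT. Nanog (chromosome 6, 122707489 to 122714633, plus strand, GRCm38) read 556, 586, 584 and 554 CPM in C1H and 90.5, 75.5, 73.7 and 82.7 CPM in C1HDT, which is 7.04-fold lower (log2 fold change -2.81, SE 0.088, edgeR FDR = 1.41e-58). Esrrb fell from 379.6, 364, 367 and 375 CPM to 53.7, 47.8, 35.6 and 33.7 CPM (log2 fold change -3.12, SE 0.10, edgeR FDR = 1.81e-46). For Tfcp2l1 (chromosome 1, 118627945 to 118685168, plus strand) the libraries gave 1239, 1165, 1139.9 and 1264 CPM and then 58.8, 60.2, 47.3 and 56.9 CPM, a 21.5-fold decrease (log2 fold change -4.43, SE 0.084, edgeR FDR = 3.94e-94). The groups were far apart for all 3 genes, and the C1HDT libraries kept a measurable remainder of each. Klf4 dropped 20.4-fold, Tbx3 13.4-fold, Zfp42 9.62-fold and the adhesion molecule Jam2 26.1-fold, with edgeR FDRs between 2.69e-57 and 4.70e-16. The largest decrease of the list belonged to Prdm14, which restrains FGF signaling and DNA methylation, with 49.1, 46, 51.3 and 54.2 CPM in C1H and 2.72, 0.955, 0.838 and 0.681 CPM in C1HDT. Klf5 fell least among them (log2 fold change -1.29) and stayed the most abundant of the list, at 3059 ± 115 CPM in C1H and 1248 ± 77.6 CPM in C1HDT. Gbx2 went the other way, from 3.15 ± 1.89 to 10.6 ± 3.4 CPM (log2 fold change 1.80, SE 0.32, edgeR FDR = 4.85e-07), and Dppa3 did not pass (0.857 ± 0.571 and 1.54 ± 0.732 CPM).

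Genes shared by naive and later pluripotency split, with 10 of 14 higher and 4 lower. Pou5f1, the gene of OCT4, read 48, 41.1, 35.2 and 34.1 CPM in C1H and 51, 45.4, 55.7 and 51.8 CPM in C1HDT (log2 fold change 0.36, SE 0.13, edgeR FDR = 0.01), and the ranges of the groups overlapped. Its level may miss reads that also align to Pou5f1 pseudogenes, since unique alignments alone were counted. Sox2 fell 2.95-fold, from 761 ± 24.7 to 257 ± 39.2 CPM, and Tdgf1, the Nodal coreceptor, 4.53-fold. Utf1 rose 4.26-fold, Zic2 3.31-fold and Dppa4 1.93-fold, while Sall4 rose by a log2 fold change of 0.43. Dppa4 and Dppa2, whose proteins work as a pair, moved apart, with Dppa2 at -1.09 on the log2 scale.

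**Figure D2:**
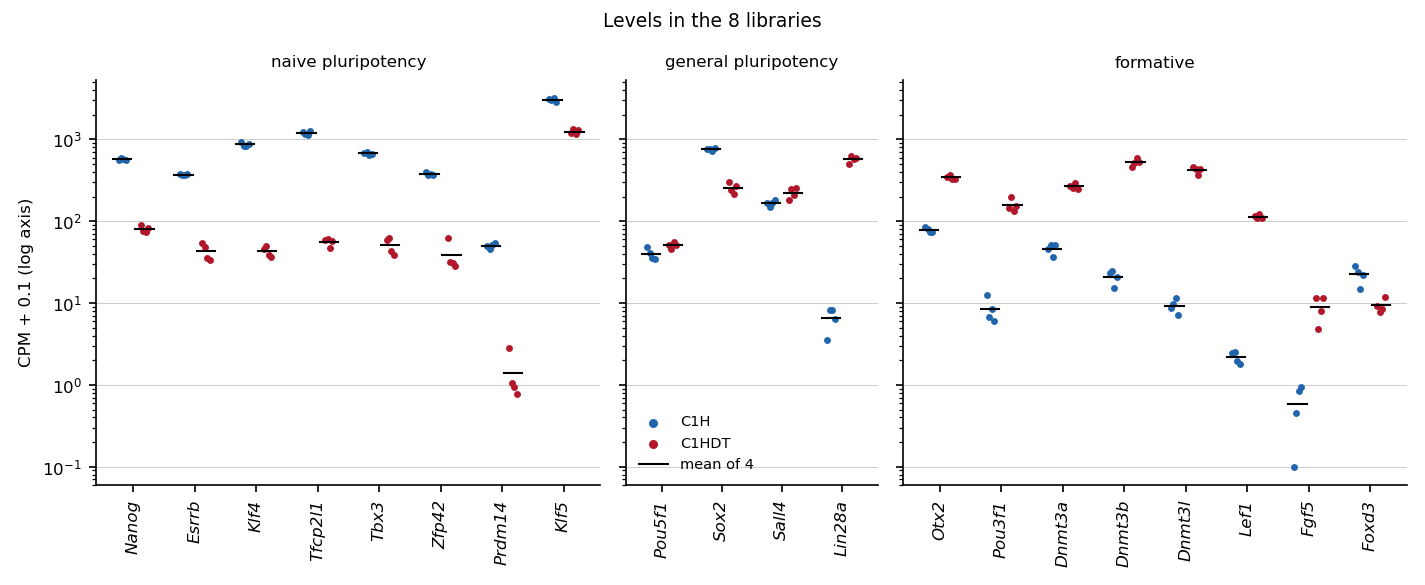
CPM plus 0.1 on a log axis in each of the 4 C1H libraries (blue) and 4 C1HDT libraries (red) for genes of the naive, general and formative lists, with the mean of each group as a black line. The naive genes drop to lower but measurable levels, such as Nanog from 570.2 ± 17.7 to 80.6 ± 7.65 CPM, while Dnmt3b climbs from 21 ± 4.06 to 525 ± 53.1 CPM.

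Formative and post-implantation genes rose in 11 of 14 cases, with a median log2 fold change of 2.42, and 2 fell. Otx2 rose 4.36-fold, from 85.5, 81.2, 74.4 and 73.6 CPM to 346, 371, 331 and 328 CPM (log2 fold change 2.12, SE 0.085, edgeR FDR = 1.85e-52). Pou3f1, the gene of OCT6, went from 12.6, 6.62, 8.43 and 5.89 CPM to 147, 199, 132 and 152 CPM (log2 fold change 4.19, SE 0.18, edgeR FDR = 1.08e-23). In C1H, Lef1 was close to the floor at 2.38, 2.44, 1.83 and 1.68 CPM, and in C1HDT it read 115, 108, 122 and 111 CPM. Fgf5, the classical marker of the post-implantation epiblast, was at the floor in C1H and read 11.6, 4.78, 7.96 and 11.6 CPM in C1HDT, at least 8.1-fold higher. Etv4, Sall2 and Sox3 rose by log2 fold changes of 4.07, 2.6 and 2.32. Foxd3 and Grhl2 fell (-1.24 and -0.59), and Foxp1 stayed at 58.1 ± 8.33 and 58 ± 5.22 CPM without passing the test. With each of the 8 libraries left out in turn, Grhl2 lost its call, with an edgeR FDR of up to 0.12 without C1HDT replicate 4.

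The enzymes of DNA methylation moved in opposite directions. The 3 genes of de novo methylation rose: Dnmt3a from 46.2 ± 6.8 to 266 ± 20.3 CPM (5.76-fold), Dnmt3b from 23.5, 24.4, 15.4 and 20.6 CPM to 459, 519, 589 and 533 CPM (24.9-fold) and Dnmt3l from 8.52, 9.76, 11.4 and 7.15 CPM to 465, 433, 371 and 439 CPM (46-fold, log2 fold change 5.52, SE 0.16, edgeR FDR = 5.14e-28). The dioxygenases that oxidize 5-methylcytosine fell, Tet2 from 267 ± 12.4 to 15.3 ± 3.99 CPM (17.1-fold) and Tet1 from 702 ± 16.9 to 249.9 ± 15.7 CPM (2.81-fold), with Tet3 at a log2 fold change of -0.73. Maintenance methylation moved little, with Dnmt1 at -0.42 and its partner Uhrf1 at -0.31. Of the 10 tested genes 3 rose and 6 fell. The call of Tet3 was lost in 7 and that of Uhrf1 in 5 of 8 leave-one-out fits (edgeR FDR up to 0.17 for Tet3 without C1H replicate 3 and 0.14 for Uhrf1 without C1H replicate 4).

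Imprinted genes rose in 13 of 18 cases and fell in 3. Nnat read 0.681, 2.09, 2.93 and 2.94 CPM in C1H and 88.1, 125, 152 and 121 CPM in C1HDT. The noncoding H19 went from 0.341, 1.39, 2.2 and 1.68 CPM to 68, 93.2, 51.5 and 66.1 CPM (log2 fold change 5.60, SE 0.31, edgeR FDR = 8.66e-20), and Mest, Snrpn and Peg3 rose 9.08-, 4.59- and 4.12-fold. Meg3, a noncoding RNA already abundant in C1H, rose from 1444 ± 41.1 to 2870.0 ± 253 CPM. Plagl1 and Igf2r fell (-3.19 and -1.23 on the log2 scale). Allelic origin cannot be read from these counts.

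The heterochronic RNA-binding group rose in 6 of 9 cases. Lin28a dwarfed the rest, and Lin28b (0.85), Igf2bp1 (0.62), Igf2bp3 (0.67) and the ubiquitin ligase Trim71 (0.35) followed with changes under 1 on the log2 scale. The chromatin protein gene Hmga2 fell from 64 ± 1.97 to 41.4 ± 8.34 CPM.

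Neural genes rose in 9 of 14 tested cases. Sox1, the earliest marker of neural fate, read 12.9, 17.1, 16.1 and 13.9 CPM in C1H and 123, 138, 157 and 153 CPM in C1HDT (log2 fold change 3.24, SE 0.12, edgeR FDR = 1.04e-54). Sox11 rose from 29.9 ± 2.93 to 390.5 ± 27.9 CPM (13-fold), Pax6 from 1.76 ± 0.306 to 15.9 ± 2.97 CPM (8.81-fold) and Tubb3, a neuronal tubulin, from 9.52 ± 2.3 to 82.5 ± 8.01 CPM (8.71-fold). Six3, Ncam1 and Elavl3 fell (-2.46, -1.09 and -0.50), and the call of Elavl3 was lost in most leave-one-out fits (edgeR FDR up to 0.16 without C1HDT replicate 1). Neurog2, Dcx, Fabp7 and Dlx5 were at the floor in both groups.

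Genes of the primitive streak and mesoderm did not move as a group, with 4 of 14 higher and 4 lower, shares of 28.6% in each direction against backgrounds of 26.3% and 29.4%. T, the brachyury gene, was at the floor in both groups, as was Evx1. So were Mixl1 and Fgf8, which are among the 4 lower and the 4 higher calls and rest on 3 counts or fewer in every library. Their calls were lost in 7 and 4 of 8 leave-one-out fits, with edgeR FDRs of up to 0.11 for Mixl1 without C1HDT replicate 4 and 0.085 for Fgf8 without C1HDT replicate 2. Gsc fell from 15.3, 14.3, 14.7 and 16.4 CPM to 2.04, 0.955, 1.68 and 0.681 CPM (log2 fold change -3.44, SE 0.37, edgeR FDR = 2.63e-15), Eomes from 33.1 ± 3.31 to 17.5 ± 4.62 CPM and Kdr from 8.33 ± 1.66 to 1.91 ± 0.82 CPM. Pdgfra rose from 2.32 ± 1.12 to 18.4 ± 2.77 CPM, Lhx1 from 1.04 ± 1.21 to 5.98 ± 2.92 CPM and Hoxb1 from 1.34 ± 0.662 to 16.8 ± 4.25 CPM.

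Endoderm transcription factors rose in 7 of 11 tested cases (63.6%). GATA6 and GATA4 open the primitive endoderm program in the early embryo, SOX17 and SOX7 follow them, and FOXA2 serves several endoderm lineages. Gata6 read 2.73, 2.44, 1.83 and 4.2 CPM in C1H and 37.8, 42, 43.6 and 34.1 CPM in C1HDT (log2 fold change 3.80, SE 0.23, edgeR FDR = 2.66e-33). Foxa2 (chromosome 2, 148042877 to 148046969, minus strand) went from 1.7, 2.44, 2.56 and 2.52 CPM to 29.6, 35.8, 27.6 and 40.9 CPM (log2 fold change 3.84, SE 0.26, edgeR FDR = 1.48e-29). Sox17 read 3.75, 5.58, 2.93 and 3.78 CPM and then 17.7, 21.5, 23 and 27.2 CPM, and Gata4 6.81, 5.23, 7.33 and 7.57 CPM and then 29.6, 29.1, 26 and 31 CPM. In each of these 4 genes every C1HDT library lay above every C1H library. Sox7 was at the floor in C1H and at least 3.51-fold higher in C1HDT (3.88 ± 0.862 CPM). Foxq1 rose 5.28-fold, Hhex fell to 8.81 ± 0.618 CPM (log2 fold change -0.59), and Hnf4a (3.08 ± 1.06 and 5.1 ± 1.21 CPM), Foxa3 and Foxa1 did not pass. The call of Hhex was lost in 6 of 8 leave-one-out fits (edgeR FDR up to 0.11 without C1H replicate 4), and Hnf4a passed in 1 (edgeR FDR = 0.035 without C1H replicate 4).

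Effector genes of visceral and parietal endoderm rose in 11 of 21 tested cases and fell in none. Visceral endoderm takes up maternal proteins through the receptors cubilin and megalin with their partners amnionless and DAB2, and genes of that apparatus moved together. Dab2 (chromosome 15, 6299788 to 6440712, plus strand) read 11.6, 10.8, 16.5 and 14.7 CPM in C1H and 414, 508, 401 and 445 CPM in C1HDT, 33-fold higher (log2 fold change 5.05, SE 0.20, edgeR FDR = 2.98e-18). Amn rose from 5.45, 5.93, 7.69 and 5.04 CPM to 129, 136, 107 and 120.2 CPM (log2 fold change 4.33, SE 0.18, edgeR FDR = 2.22e-38). Cubn was at the floor in C1H and read 12.6, 17.7, 16.8 and 18 CPM in C1HDT, at least 14.7-fold higher, and Lrp2, the gene of megalin, rose 11.2-fold. Pth1r, the receptor through which parietal endoderm answers parathyroid hormone related protein, rose from 4.43, 6.28, 5.5 and 4.62 CPM to 138, 175, 125 and 159 CPM (log2 fold change 4.82, SE 0.17, edgeR FDR = 1.53e-50). Cited1, a transcriptional coactivator, rose 14.1-fold, and Sparc, a matrix protein abundant in parietal endoderm, from 755 ± 36.5 to 3241 ± 309.8 CPM. Afp and Cer1 were at the floor in both groups.

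The secreted liver-type members of this list behaved differently. Apoa1 stood at 416 ± 69.4 CPM in C1H and 469 ± 70.0 CPM in C1HDT, Ttr at 115 ± 24.3 and 136 ± 26.2 CPM, and Apoa2, Apoa4, Apob, Trf and Rbp4 did not pass either. A list of 24 liver transcripts, chosen after the values were seen, was therefore read in all libraries. It includes genes of adult hepatocytes, and all 24 were above 1 CPM in every library of the series, with Alb (albumin) between 340.0 and 1222 CPM, the urinary protein gene Mup3 between 47.4 and 209.6 CPM and the cytochrome Cyp3a11 between 7.09 and 49 CPM. Summed over the list, the C1H libraries held between 1879 and 2947 CPM and the C1HDT libraries between 2382 and 3282. Relative to Alb, Ahsg stood at 29.8% in C1H and 29.8% in C1HDT, and Serpina1b at 11.9% and 12.3%, whereas Apoc1 went from 48.2% to 28.7% and Cps1 from 3.52% to 2.52%. Of the 24, 1 passed the test (Apoc1, log2 fold change -0.50), and the median was 0.146. The source of these reads was not tested, and the levels of Apoa1, Apoa2, Apoa4, Apob, Ttr, Trf and Rbp4 are not read here as endoderm expression. Afp, which fetal liver and visceral endoderm share, had no such level.

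Basement membrane genes divided by subunit. Basement membranes are sheets of type IV collagen and laminin joined by nidogens and perlecan, and parietal endoderm is among the tissues that make them most heavily. Of 15 genes 8 rose and 5 fell. Col4a1 read 15.7, 23.4, 25.3 and 17.2 CPM in C1H and 482, 602, 534 and 596 CPM in C1HDT, 27-fold higher (log2 fold change 4.75, SE 0.12, edgeR FDR = 3.24e-40), and Col4a2 8.18, 11.2, 10.3 and 11.8 CPM and then 196, 305, 238 and 238 CPM, 23.6-fold higher (log2 fold change 4.56, SE 0.13, edgeR FDR = 1.67e-68). These are the chains of the most widespread collagen IV trimer. Of the laminin chains, Lama1 rose 13.5-fold (from 16.6 ± 3.21 to 227 ± 35.1 CPM) and Lamb1 4.24-fold (from 106 ± 9.32 to 449 ± 59.4 CPM), while Lamc1, with which they form laminin-111, fell from 313 ± 17.9 to 214 ± 12.5 CPM. Lama5, the alpha chain of laminin-511, fell 2.46-fold. Col18a1 rose 11.7-fold. Nid1 fell from 309, 275, 247 and 287 CPM to 18, 13.4, 15.9 and 18.7 CPM, 16.7-fold lower, and Fn1, fibronectin, 3.53-fold, whereas Nid2 and Lamb2 did not pass, though Lamb2 passed in 2 leave-one-out fits (edgeR FDR down to 0.009 without C1HDT replicate 1). In bulk libraries, a larger share of cells of a type and more RNA per cell cannot be told apart.

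Col4a1 and Col4a2 lie head to head on chromosome 8, so the RefSeq promoter windows of the pair, 250 bases before to 50 bases after each start (GRCm38.p6), overlap. The windows are shown because the genes moved together, each 5′ to 3′ on its own strand, with the 78 bases common to both in capitals:
Col4a1, chr8:11312777-11313076, minus strand: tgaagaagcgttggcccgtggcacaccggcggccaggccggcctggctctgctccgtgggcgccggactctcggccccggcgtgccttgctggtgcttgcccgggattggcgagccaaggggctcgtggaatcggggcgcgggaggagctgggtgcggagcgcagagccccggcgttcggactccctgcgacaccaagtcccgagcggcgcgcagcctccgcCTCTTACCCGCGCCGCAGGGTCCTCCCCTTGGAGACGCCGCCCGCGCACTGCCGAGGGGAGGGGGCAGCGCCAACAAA
Col4a2, chr8:11312555-11312854, plus strand: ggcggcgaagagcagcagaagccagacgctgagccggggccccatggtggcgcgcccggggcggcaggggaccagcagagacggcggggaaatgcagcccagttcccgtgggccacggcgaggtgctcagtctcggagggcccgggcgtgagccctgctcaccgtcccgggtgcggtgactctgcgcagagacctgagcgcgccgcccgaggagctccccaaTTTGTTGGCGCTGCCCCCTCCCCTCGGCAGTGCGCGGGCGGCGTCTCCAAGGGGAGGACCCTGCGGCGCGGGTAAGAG
The GC content of the windows was 74.0% and 73.7%. Windows of 3 endoderm genes are shown for the matches they hold. Capitals mark the GATA letters AGATAA or the TCF/LEF letters CTTTGAT, on either strand:
Foxa2, chr2:148045415-148045714, minus strand: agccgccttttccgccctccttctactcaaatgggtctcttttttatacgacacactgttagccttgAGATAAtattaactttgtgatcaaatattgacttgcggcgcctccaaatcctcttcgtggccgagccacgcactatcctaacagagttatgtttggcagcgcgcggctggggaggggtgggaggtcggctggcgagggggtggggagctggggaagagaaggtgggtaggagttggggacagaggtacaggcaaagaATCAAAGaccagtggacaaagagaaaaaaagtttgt
Dab2, chr15:6299539-6299838, plus strand: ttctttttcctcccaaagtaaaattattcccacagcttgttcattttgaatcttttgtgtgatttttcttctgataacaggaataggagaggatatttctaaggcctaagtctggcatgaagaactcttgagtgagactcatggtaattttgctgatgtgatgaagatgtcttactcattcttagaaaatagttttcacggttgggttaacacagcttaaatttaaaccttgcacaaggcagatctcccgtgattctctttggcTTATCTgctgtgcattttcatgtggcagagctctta
Cubn, chr2:13491827-13492126, minus strand: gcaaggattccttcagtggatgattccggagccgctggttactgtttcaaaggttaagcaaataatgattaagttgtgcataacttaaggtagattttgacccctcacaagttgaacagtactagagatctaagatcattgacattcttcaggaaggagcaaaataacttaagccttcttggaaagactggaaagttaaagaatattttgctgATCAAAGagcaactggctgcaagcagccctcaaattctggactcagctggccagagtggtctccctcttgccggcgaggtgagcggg
Foxa2 has 3 windows in the table and Dab2 2, and 1 of each is shown.

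AGATAA was found in 11.2% of all 32851 windows, in 1 of 14 windows of the endoderm effectors that rose and in 0 of 9 windows of the basement membrane genes that rose. CTTTGAT was found in 3.73% of all windows, in 1 of 14 and in 0 of 9 of the same sets. A match to one motif can share up to 2 letters with a match to the other, and none did in the windows shown. Neither the Col4a1 nor the Col4a2 window holds either motif. Of the 7 endoderm transcription factors that rose, Foxa2 alone had windows in the table. The matches describe these letters only.

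In the knockout without dox the endoderm and basement membrane genes moved differently. The day 4 change of C1HDT against C1H was compared with that of C1T against C1, which share no library, as an interaction in the same fit. Of 11 endoderm transcription factors 6 differed, all toward C1HDT, as did 11 of 21 effectors and 12 of 15 basement membrane genes, where 12.7% of all tested genes differed in that direction. Gata6 read 1.26 ± 1.15 CPM in C1 and 2.95 ± 1.15 in C1T, and the difference in log2 change was 2.64 (SE 0.66, edgeR FDR = 9.58e-04). Sox17 was 2.36 ± 0.975 CPM in C1 and at the floor in C1T, so that the size of its difference depends on the prior count and is not given, while its test passed (edgeR FDR = 4.92e-09). For Dab2 the difference was 4.25 (SE 0.55, edgeR FDR = 9.37e-07), for Pth1r 4.97 (SE 0.37, edgeR FDR = 2.57e-22) and for Spink1 6.72 (SE 0.64, edgeR FDR = 1.31e-13). Sparc fell in the knockout, from 1329.5 ± 132 to 218 ± 19.4 CPM, while it rose here, a difference of 4.71 (SE 0.10, edgeR FDR = 9.57e-86). Col4a1, Col4a2, Lama1 and Lamb1 differed by 4.44, 5.08, 5.44 and 2.26. Among the genes that fell here, Lamc1, Nid1 and Fn1 fell further in the knockout (differences 2.12, 1.20 and 0.78). Lrp2 rose in both, with a log2 fold change of 3.49 here and 3.22 in C1T vs C1, and its difference did not pass (edgeR FDR = 0.68).

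**Figure D3:**
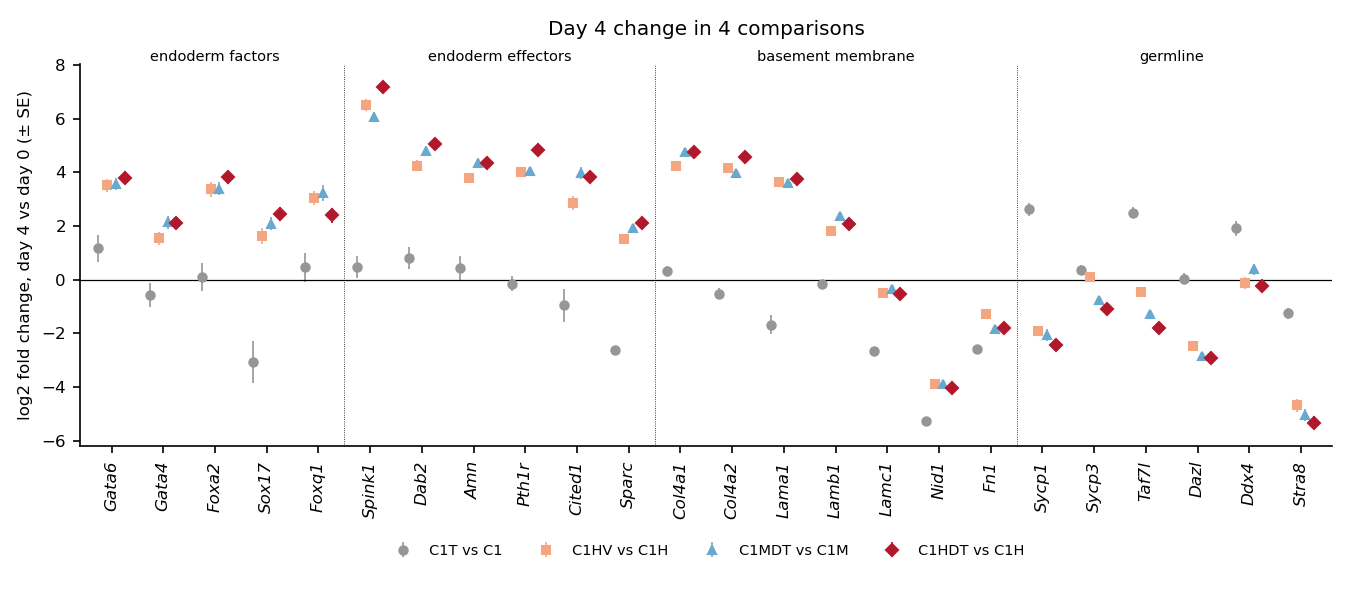
Log2 fold change of day 4 against day 0 with its SE (vertical axis) for endoderm, basement membrane and germline genes in C1T vs C1 (grey circles), C1HV vs C1H (orange squares), C1MDT vs C1M (blue triangles) and C1HDT vs C1H (red diamonds). C1HV vs C1H shares the C1H libraries with C1HDT vs C1H. Sox17 was at the floor in C1T, so its grey point depends on the prior count. For Sparc the 2 changes stand at -2.61 in C1T vs C1 and 2.10 in C1HDT vs C1H.

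The trophectoderm list fell more often than it rose, with 9 of 16 lower and 5 higher. Elf3, Tfap2c and Tead4 fell 4.72-, 4.88- and 2.89-fold, and Cdx2, the factor that founds this lineage, stood at 1.05 ± 0.864 CPM in C1H and at the floor in C1HDT and did not pass. Members that rose included the simple-epithelium keratins Krt8 (7.08 ± 1.64 to 17.3 ± 2.25 CPM) and Krt18 (7.47 ± 2.46 to 30.1 ± 5.2 CPM), which endoderm shares.

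Germline genes, many of them held silent by DNA methylation in somatic cells, fell in 9 of 16 cases and rose in 2. Dazl, a translational regulator of germ cells, went from 78, 77.1, 72.9 and 82.8 CPM to 10.5, 8.6, 7.96 and 12.6 CPM (log2 fold change -2.94, SE 0.16, edgeR FDR = 1.40e-37). Kit fell 8.44-fold, Sycp1 of the synaptonemal complex 5.42-fold and the testis TFIID subunit Taf7l 3.52-fold, while Mael and Dnd1 rose 2.03- and 2.58-fold. Of the 16, 11 differed in their day 4 change from the knockout, all downward, where 12.6% of all tested genes did. Sycp1 was 4.53 ± 1.4 CPM in C1 and 27.3 ± 5.52 in C1T, so that it rose there and fell here (difference -5.07, SE 0.32, edgeR FDR = 3.92e-31), and the same held for Taf7l (difference -4.32, SE 0.25, edgeR FDR = 2.04e-21). C1H already stood above C1 in these genes, at 38 ± 3.4 CPM for Sycp1 and 77.3 ± 6.97 CPM for Taf7l against 13.5 ± 3.58 CPM in C1. Dazl differed by -2.97, Ddx4 by -2.16 and Sycp3 by -1.47.

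Genes of the 2-cell-like state, a rare fluctuation in ESC cultures, were at low levels. Of 7 tested, 5 fell and none rose, and 6 differed downward from the knockout's change, against the same 12.6%. Zscan4d read 8.36 ± 0.681 CPM in C1H and 2.66 ± 1.24 CPM in C1HDT, and Usp17lc 22.2 ± 4.21 and 7.27 ± 2.24 CPM. Members of these families are near-identical copies, so their unique counts are uncertain.

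Hox genes fell in 21 of 34 tested cases and rose in 4, all at low levels. The highest Hox gene in C1H averaged 22.3 CPM. Over the tested genes of a cluster, the summed mean went from 62.6 to 10.6 CPM for Hoxc and from 42.4 to 4.60 CPM for Hoxd, where all 9 and all 6 genes fell. Hoxb went from 53.2 to 45.6 CPM, with 4 genes higher, among them Hoxb1 and Hoxb2 at the 3′ end of the cluster, the latter with an edgeR FDR of up to 0.053 without C1HDT replicate 4. The fitted median log2 fold change was -2.27, but 14 of these genes had a group at the floor, and with those at their bound it was -0.64. Reads outside genes fell between the same groups.

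Wnt target and feedback genes showed no common direction, with 5 of 17 tested higher, 6 lower and 6 that did not pass. Lef1 and Ccnd1 rose 52.9- and 7.57-fold. Axin2, the usual transcriptional readout of β-catenin, read 2.38, 2.44, 1.47 and 0.841 CPM in C1H and 5.1, 2.87, 2.93 and 4.09 CPM in C1HDT and did not pass (log2 fold change 1.05, SE 0.48, edgeR FDR = 0.052). Dkk1, a secreted inhibitor, was at the floor in C1H and at least 5.98-fold higher in C1HDT. Nkd1 and Znrf3 fell (-0.91 and -0.79), and Sp5, Dkk4, Rnf43, Lgr5, Apcdd1 and T were under the filter. The TCF factors moved apart, with Tcf7 and Tcf7l1 higher (0.73 and 0.32) and Tcf7l2 lower (-0.69). Several of these calls were marginal, with those of Nkd1 and Znrf3 lost in 5 of 8 leave-one-out fits each, that of Tcf7 in 3 and that of Tcf7l1 in 1. Nkd1 and Tcf7 did not pass with DESeq2, nor Tcf7 with library size as the only scaling. The edgeR FDR reached 0.13 for Nkd1 without C1HDT replicate 1, 0.11 for Znrf3 without C1H replicate 2, 0.16 for Tcf7 without C1HDT replicate 1 and 0.062 for Tcf7l1 without C1HDT replicate 2, while Axin2 passed in 4 of 8 (edgeR FDR down to 0.04 without C1H replicate 1). Lef1 rose in the knockout too, from 2.51 ± 0.775 to 270.1 ± 19.6 CPM, and its difference did not pass (edgeR FDR = 0.1). Of the 17 genes 8 differed from the knockout's change, 6 downward and 2 upward, where 12.6% and 12.7% of all tested genes did.

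The 3′ tags at Ctnnb1 (chromosome 9, 120929216 to 120960507, plus strand), which may also read transcripts of the fusion gene, checked the induction. Ctnnb1 read 40.5, 40.4, 48.7 and 34.9 CPM in C1H and 28.6, 36.3, 30.2 and 28.3 CPM in C1HDT (log2 fold change -0.43, SE 0.16, edgeR FDR = 0.015). The call was lost in 3 of 8 leave-one-out fits (edgeR FDR up to 0.11 without C1H replicate 3). Beside these stood 7.81 ± 2.63 CPM in C1, 9.74 ± 2.47 in C1T and 6.21 ± 1.84 in C1HV, none of which had dox in the medium at collection. In the middle fraction Ctnnb1 went from 12.3 ± 3.84 CPM in C1M to 29.2 ± 4.29 in C1MDT, close to the 30.8 ± 3.75 of C1HDT. The 2 day 4 changes of Ctnnb1 differed by -1.71 (SE 0.25, edgeR FDR = 1.55e-06). Among its partners Ctnna1, Ctnnd1, Jup and Cdh1 fell, Cdh1 (E-cadherin) from 575, 569, 540.5 and 652 CPM to 192, 182, 172 and 170.3 CPM (log2 fold change -1.70, SE 0.079, edgeR FDR = 3.09e-45), and Cdh2 (N-cadherin) rose from 3.29 ± 0.395 to 9.46 ± 4.15 CPM. Of the destruction complex, Gsk3b, Apc and Btrc fell (-0.74, -0.76 and -1.27), Gsk3a and Fbxw11 rose (0.37 and 0.28), and 5 of 10 genes did not pass. Neither rise passed with library size as the only scaling or with DESeq2. The calls of Gsk3a and Fbxw11 were lost in 3 and 2 of 8 leave-one-out fits, with edgeR FDRs of up to 0.064 for Gsk3a without C1H replicate 3 and 0.1 for Fbxw11 without C1HDT replicate 2.

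ERK response genes rose in 10 of 16 cases, after a medium with a MEK inhibitor was replaced by one without it. Dusp6, a phosphatase that the pathway induces against itself, read 3.75, 4.53, 3.66 and 3.78 CPM in C1H and 56.5, 47.3, 49.9 and 46 CPM in C1HDT (log2 fold change 3.65, SE 0.19, edgeR FDR = 1.91e-39). Dusp4 and Etv4 rose 18.5- and 16.8-fold, Spry2 2.23-fold, and Spry4 was at least 4.05-fold higher, from a C1H at the floor. Fos, an immediate early gene, fell from 11.4 ± 4.69 to 1.94 ± 0.704 CPM. The difference from the knockout's change did not pass for Dusp6 and Dusp4 (edgeR FDR = 0.94 and 0.54), while Etv4 rose further here (difference 1.68) and Spry2 less (difference -1.40).

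FGF ligands and receptors rose in 8 of 11 cases, one of them Fgf8, which was at the floor in both groups. Fgf4, the ligand that ESCs make to drive their own exit from naive pluripotency, fell from 349 ± 3.98 to 99.7 ± 9.0 CPM. Fgf15 rose 14.8-fold, Fgf3 5.41-fold, Fgf10 3.65-fold and Fgfr3 3.89-fold, and Fgfr1, the main receptor here, was 64.8 ± 3.29 and 68.9 ± 2.29 CPM. Fgf3 rose further than in the knockout (difference 2.69). The differences of Fgf10 and Fgfr3 passed in the same direction (edgeR FDR = 0.0026 and 8.52e-05), with both genes at the floor in C1T.

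Genes of LIF and STAT3 signaling, receptors and targets together, fell in 8 of 12 cases and rose in none. Socs3, the feedback inhibitor that STAT3 induces, read 71.2, 83.3, 85 and 76.9 CPM in C1H and 7.82, 6.69, 5.45 and 7.15 CPM in C1HDT (log2 fold change -3.52, SE 0.17, edgeR FDR = 2.18e-43). Bcl3, Junb and Stat3 itself fell 7.16-, 4.2- and 2.43-fold, while the receptor genes Lifr (50.6 ± 5.14 and 47.9 ± 8.58 CPM) and Il6st (34 ± 3.72 and 40.4 ± 5.26 CPM) did not pass, apart from Il6st in 1 leave-one-out fit (edgeR FDR 0.036 for Il6st without C1HDT replicate 4).

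Nodal pathway genes rose in 5 of 10 cases and fell in 4. The Nodal antagonists Lefty1 and Lefty2 rose, Lefty1 from 5.45, 4.18, 4.03 and 2.94 CPM to 128, 142, 125 and 183 CPM (log2 fold change 5.09, SE 0.25, edgeR FDR = 2.59e-16) and Lefty2 7.53-fold. Nodal fell from 52.6 ± 2.46 to 34 ± 7.71 CPM, and Smad7, an inhibitor shared with BMP and TGFβ signaling, 12.8-fold, from 216 ± 32.6 to 16.7 ± 3.68 CPM. The BMP list was divided, with 4 of 11 higher and 4 lower, among them Id1 and Id2 higher (5.35- and 2.99-fold) and Id4, Bmp4 and Bmp7 lower (-1.60, -0.76 and -1.0). Bmp4 lost its call in 1 leave-one-out fit (edgeR FDR 0.082 for Bmp4 without C1H replicate 1).

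Retinoid handling genes rose in 4 of 15 cases and fell in 4. The binding proteins Crabp1 and Crabp2 rose, Crabp1 from 36.9 ± 6.94 to 226 ± 54.1 CPM, as did the receptor gene Rarg (4.6-fold) and the retinol transporter Stra6 (at least 3.62-fold). Aldh1a3, which makes retinoic acid, fell from 18.2 ± 1.34 CPM to the floor, at least 15.3-fold lower. Stra8, Rarb and Dhrs3, which retinoic acid induces, fell by 40.4-, 5.82- and 5.06-fold, and the retinoid hydroxylases Cyp26a1 (2.05 ± 1.16 and 2.48 ± 0.634 CPM) and Cyp26b1 (0.809 ± 0.645 and 1.41 ± 1.05 CPM) did not pass.

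Epithelial and mesenchymal genes were evenly divided, with 7 of 16 higher and 7 lower. Vim rose from 32.3 ± 2.42 to 197 ± 7.55 CPM (6.09-fold), and the tight junction gene Cldn6 from 1.57 ± 0.917 to 38.5 ± 2.19 CPM (23.9-fold). Epcam rose while Cdh1 fell, and of the mesenchymal factors Zeb2 rose, Zeb1, Snai2 and Twist1 fell, and Snai1 did not pass. Snai2 lost its call in 1 leave-one-out fit (edgeR FDR 0.067 for Snai2 without C1HDT replicate 4).

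**Figure D4:**
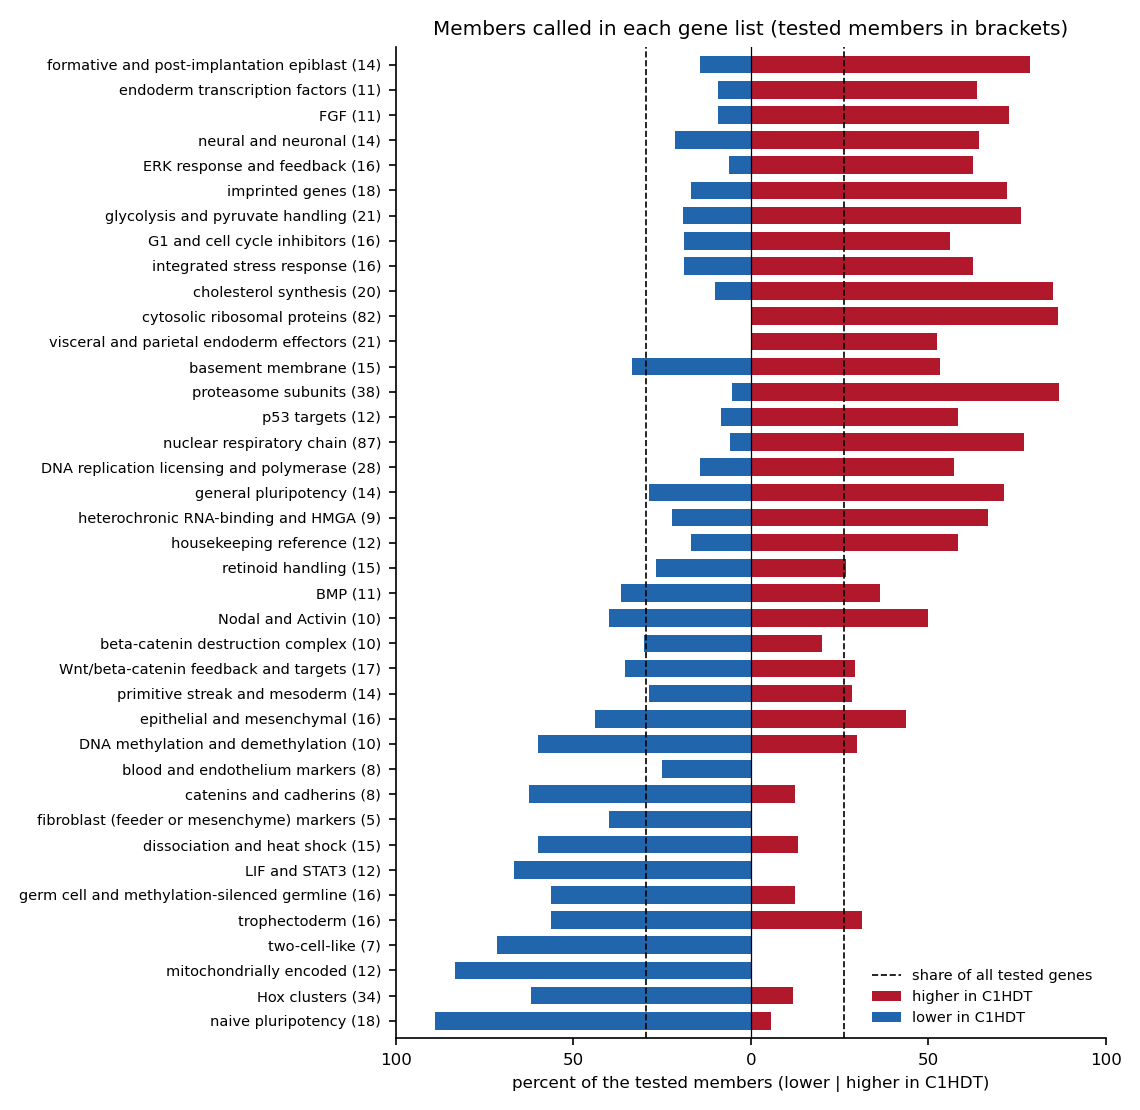
Share of the tested members of each gene list called higher (red, to the right) and lower (blue, to the left) in C1HDT vs C1H, in percent, ordered by the median log2 fold change. Dashed lines mark the shares over all tested genes, 26.3% higher and 29.4% lower, and naive pluripotency reaches 88.9% lower.

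Genes of protein synthesis rose broadly by small amounts. Of 82 cytosolic ribosomal protein genes 71 rose and none fell, with a median log2 fold change of 0.60, and their summed level went from between 81560 and 82890 CPM to between 126700 and 131200 CPM. Many of these genes have processed pseudogenes, so unique counts may miss part of each. Proteasome subunits rose in 33 of 38 cases (median 0.50), and Psmb9, an immunoproteasome subunit, and Psmd7 fell, calls that were lost in 2 and 3 of 8 leave-one-out fits (edgeR FDR up to 0.14 for Psmb9 without C1H replicate 2 and 0.1 for Psmd7 without C1HDT replicate 2). With library size as the only scaling, 67 ribosomal and 26 proteasome genes rose and 2 and 3 fell.

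The 2 genomes of the respiratory chain went in opposite directions. Nuclear-encoded subunits rose in 67 of 87 cases (median 0.48), while 10 of 12 mitochondrially encoded genes fell and none rose (median -1.83). mt-Nd1 fell from 5622 ± 542 to 1803 ± 246 CPM and mt-Co1 from 1152 ± 54.6 to 304 ± 7.83 CPM. Cox7a1, a muscle isoform, fell 3.55-fold, and Ndufa4l2, which hypoxia induces, rose from 1.82 ± 1.74 to 11.7 ± 1.97 CPM.

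Glycolysis and pyruvate genes rose in 16 of 21 cases (76.2%) and fell in 4. Slc16a3, the lactate exporter, read 22.5, 23.4, 27.5 and 30.3 CPM in C1H and 279, 270.4, 246 and 292 CPM in C1HDT (log2 fold change 3.40, SE 0.11, edgeR FDR = 1.48e-60). Slc2a1, a glucose transporter, Pfkl and Pdk1 rose 7.23-, 6.1- and 4.71-fold, and Ldha, Pkm and Aldoa, which start from high levels, 3.16-, 2.79- and 2.12-fold. Both ubiquitous hexokinases fell, Hk2 to 73.2 ± 12.1 CPM and Hk1 to 42.5 ± 6.23 CPM, and the phosphofructokinase isoform Pfkp fell from 329 ± 13.9 to 93.4 ± 12.3 CPM while Pfkl rose to 275 ± 22.9. Of the 21 genes 15 differed upward from the knockout's change, against 12.7% of all tested genes, and none downward, among them Pfkl and Aldoc (differences 2.05 and 2.71). The unique counts of Gapdh (73.2 ± 5.93 CPM), Eno1 and Pgk1 (3.72 ± 2.22 CPM) in C1H are low for such genes, which have many pseudogenes, and their values are uncertain. At day 4, 12 of the 21 were higher in C1HDT than in C1HV, where 9.10% of all tested genes were, and Ldhb and Pfkp were lower, where 6.88% were. Ldha read 1133 ± 98.3 CPM in C1HDT and 666 ± 63.3 in C1HV, and Pdk1 71.4 ± 4.45 and 36.4 ± 2.86. The rise of Pgk1 was lost in 2 leave-one-out fits (edgeR FDR up to 0.14 for Pgk1 without C1H replicate 4).

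Cholesterol synthesis genes rose in 17 of 20 cases (85.0%) and fell in 2. Cyp51 read 143, 149.6, 141 and 145 CPM in C1H and 471, 455, 429 and 473 CPM in C1HDT (log2 fold change 1.66, SE 0.077, edgeR FDR = 3.09e-45). Dhcr7 and Mvd rose 2.98- and 2.24-fold, and Sqle, the squalene epoxidase, 1.32-fold, while Hsd17b7 fell to 27.8 ± 1.31 CPM. At day 4 all 20 genes were higher in C1HDT than in C1HV, the same fraction without inducers, where 9.10% of all tested genes were. Pmvk read 291 ± 12.3 CPM in C1HDT and 104 ± 16.9 in C1HV, a log2 difference of 1.47 (SE 0.087, edgeR FDR = 1.52e-32), and Mvd differed by 1.44 (SE 0.13, edgeR FDR = 9.88e-09). Aacs, which feeds ketone bodies into lipid synthesis, differed by 1.88 (SE 0.27, edgeR FDR = 1.85e-08).

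**Figure D5:**
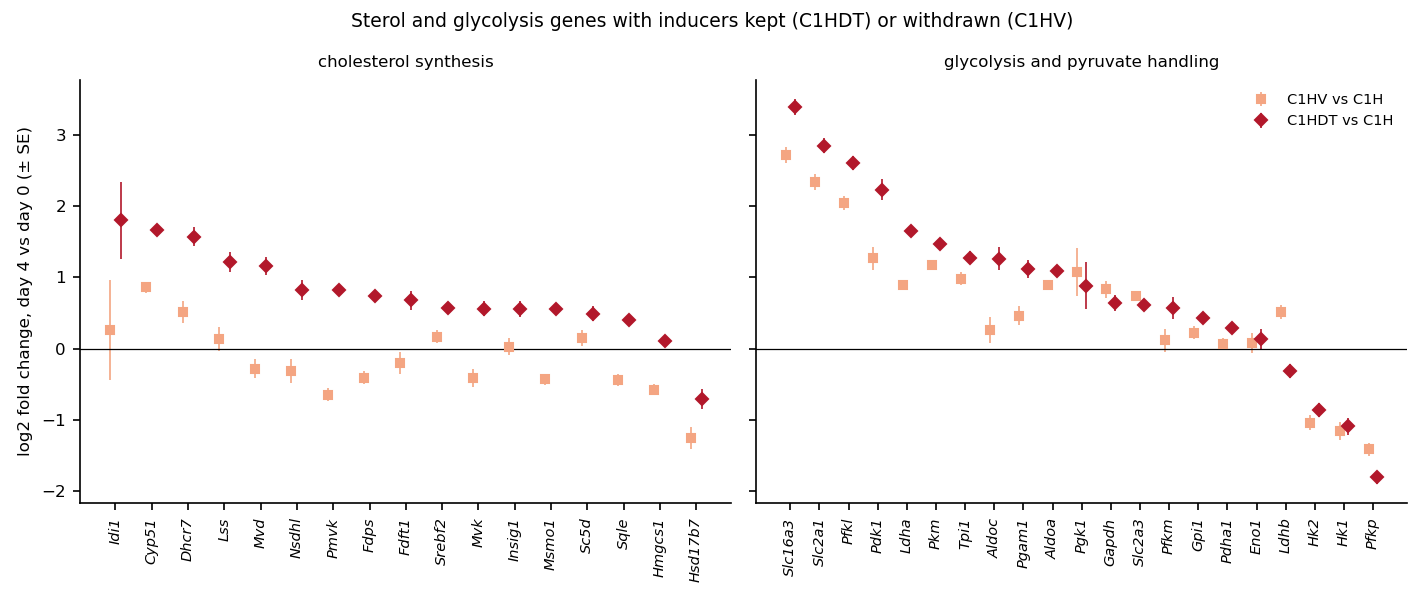
Log2 fold change of day 4 against C1H with its SE (vertical axis) for genes of cholesterol synthesis (left) and glycolysis (right), in C1HDT vs C1H (red diamonds) and C1HV vs C1H (orange squares), which share the C1H libraries. Each cholesterol gene drawn stands higher in C1HDT, for Pmvk at 0.82 against -0.65, and 12 of the 21 glycolysis genes were called higher and 2 lower than in C1HV.

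Of the G1 regulators, Ccnd2 rose from 7.3 ± 4.01 to 84.3 ± 6.01 CPM, Ccnd1 from 17.5 ± 2.16 to 133 ± 9.6 CPM and Cdk4 2.41-fold, Ccnd3 fell to 365 ± 37.8 CPM, and 9 of 16 rose in all. Mycn and Mycl rose (1.15 and 1.58), and Myc was at the floor in C1H and read 1.11 ± 0.509 CPM in C1HDT. Replication genes rose in 16 of 28 cases (57.1%) and fell in 4, where 51.8% of all genes over 100 CPM rose. Mcm2, Mcm5 and Pold1 were higher (1.01, 0.79 and 1.03) and the origin factors Orc1 and Orc6 lower (-0.94 and -0.76). p53 targets rose in 7 of 12 cases, led by the apoptosis gene Bbc3 (4.25-fold), while Cdkn1a, the gene of p21, fell from 395 ± 32.9 to 291 ± 41.1 CPM and Mdm2 did not pass. The integrated stress response list rose in 10 of 16 cases, with Ddit4 from 168 ± 7.44 to 714 ± 103 CPM, Slc7a3 4.45-fold and Psat1 2.96-fold, and Atf3, Cth and Asns fell.

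Markers of handling and of other cells were read for the same libraries. Genes that dissociation and heat induce fell in 9 of 15 cases and rose in 2, with Junb from 27.1 ± 3.45 to 6.48 ± 2.5 CPM and Hspa1a from 10.3 ± 1.4 to 2.84 ± 1.43 CPM. C1H was sorted just before collection and C1HDT was not, and the part of sorting was not tested. Of the fibroblast markers Lum, Postn and Col3a1 were at the floor in both groups and the list summed to between 16.8 and 26 CPM in C1H and between 10.0 and 20.1 CPM in C1HDT. For blood and endothelium, Ptprc and Emcn were at the floor, Pecam1, which naive ESCs also express, fell from 63.9 ± 4.73 to 19.2 ± 3.63 CPM, and Hbb-bs stood at 7.71 ± 2.38 and 7.78 ± 3.66 CPM. Common reference genes moved as well, with 7 of 12 higher (58.3%) and 2 lower, where 51.8% of all genes over 100 CPM were higher. Actb rose from 4578 ± 93.4 to 10485 ± 291 CPM and Tfrc fell from 114 ± 4.54 to 65.8 ± 2.71 CPM. Tbp, B2m and Gusb did not pass, though B2m passed as lower under 6 other settings, among them another scaling. The 10 most abundant transcripts of C1HDT included Hsp90ab1, Rps20, Gm42418, Actb, Rps14, Rpl13, Eef2, Ptma and Rpl8, and of the 10 Gm42418 alone was lower than in C1H.

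Across genes, the day 4 change of C1HDT vs C1H ran with that of the knockout at a Pearson's r of 0.594 and with that of the middle fraction at 0.855, over 15280 genes that are not independent replicates. None of the libraries is shared in these pairs. Of the 8517 genes called here, 5067 (59.5%) were called with the same sign in C1T vs C1, which is 67.3% of the 7528 called there (49.3% of the tested genes), and 6694 (78.6%) in C1MDT vs C1M, which is 83.6% of the 8010 called there (52.4%). The changes themselves differed between C1HDT and the knockout in 3852 genes (25.2%), 1934 upward (12.7%) and 1918 downward (12.6%). Beyond the germline genes Sycp1 and Taf7l, the genes with the most negative differences, under the same limits as for the largest changes but with the mean taken over the 16 libraries of both changes, were Sycp2 (-3.96, SE 0.45, edgeR FDR = 4.42e-13), Stra8 (-4.07, SE 0.38, edgeR FDR = 4.64e-18) and the exchange factor Arhgef26 (-3.23, SE 0.33, edgeR FDR = 2.43e-15). Nanog and Tfcp2l1 fell in both (-2.81 and -4.43 here, -2.69 and -4.71 in the knockout) and their differences did not pass (edgeR FDR = 0.52 and 0.063). Zfp42, Nr0b1, Prdm14 and Esrrb fell further here (differences -0.97, -2.31, -1.69 and -0.50). Of the 18 naive genes 13 differed, 10 downward and 3 upward, against the 12.6% and 12.7% of all tested genes. Of 14 general pluripotency genes 8 differed downward and 3 upward, and of 14 formative genes 6 and 1. Pou3f1 rose less here (difference -1.68, SE 0.38, edgeR FDR = 6.48e-04).

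Between the high and the middle fraction the change differed in 156 genes (1.02%), 115 upward (0.753%) and 41 downward (0.268%), and 25 of these were cytosolic ribosomal protein genes of the 82. None of the 18 naive, 11 endoderm factor, 21 effector or 15 basement membrane genes was among them. At a share of 1.02% lists of these sizes can hold none, so no agreement between the fractions is read from this. Among genes whose C1H and C1HDT libraries did not overlap, the upper end held Slc7a7 (1.44 on the log2 scale), Ppdpf (1.33), Pigf (1.29), Dnajc30 (1.24) and Hspb6 (1.08), and at the lower end AC168977.1 (-1.55), Usp17lc (-1.41), Trappc8 (-1.03) and Stox2 (-1.01). Ctnnb1, whose libraries overlapped, lay below all of these, at -1.71. Slc7a7 rose from 5.51 ± 2.25 to 96.5 ± 5.49 CPM in the middle fraction and from 1.88 ± 0.712 to 89.4 ± 9.87 CPM in the high. Leaving out 1 library took the count of 156 to between 46 (without C1HDT replicate 4) and 210.0 (without C1MDT replicate 1). It fell to 71 and 68 without C1H replicate 1 or 2, to 94 without C1HDT replicate 3, to 60 without C1M replicate 2, and to 92, 51 and 57 without C1MDT replicate 2, 3 or 4. Each of the genes named at these ends, apart from Pigf, Stox2 and Ctnnb1, which was not counted, lost its call under at least 1 alternative.

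With the inducers kept or withdrawn, C1HDT and C1HV differed in 2442 genes (16.0%), 1390 higher (9.10%) and 1052 lower (6.88%) in C1HDT. Ctnnb1 led the genes higher in C1HDT (2.26, SE 0.23, edgeR FDR = 3.61e-15), which included Aacs, Pmvk and the zinc finger gene Zfp771 (1.45). Lower in C1HDT under the same limits were Zfp42 (-1.77, SE 0.18, edgeR FDR = 2.51e-08), Jam2 (-1.58), Txnip, an inhibitor of glucose uptake (-1.52), the secreted phosphoprotein Spp1 (-1.51) and Mapt, the gene of tau (-1.5). Of the naive list 13 of 18 genes were lower in C1HDT than in C1HV, among them Nanog, at 80.6 ± 7.65 CPM against 163 ± 19.5, Esrrb, at 42.7 ± 9.64 against 117 ± 5.28, and Tfcp2l1, at 55.8 ± 5.81 against 128 ± 7.16, and Fgf4 was higher. Formative genes were higher in 7 of 14 cases, with Dnmt3b at 525 ± 53.1 CPM against 269.6 ± 7.07 and Pou3f1 at 157 ± 29 against 94.9 ± 5.67. Gata6 and Foxa2 did not pass (edgeR FDR = 0.24 and 0.064), with 32.2 ± 4.16 and 24.5 ± 3.68 CPM in C1HV, whereas Sox17, Dab2 and Spink1 were higher in C1HDT (0.84, 0.80 and 0.70) and Foxq1, Pga5 and Apoe lower (-0.64, -1.37 and -0.72). Of 11 endoderm factors 2 were higher and 1 lower, of 21 effectors 6 and 3, and of 15 basement membrane genes 4, among them Col4a1 (0.53), and 3, Fn1 (-0.55), Lama5 and Agrn. The 24 liver transcripts summed to between 2871 and 4055 CPM in the C1HV libraries and between 2382 and 3282 in C1HDT. Their part in the level of Apoe and in the effector counts was not tested.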

How the data were processed

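RNA of 32 cultures (8 groups of 4) was sequenced as 3′ tags with QuantSeq, and 8 libraries enter the main comparison. The authors trimmed the reads, aligned them with STAR to mm10, counted uniquely aligned reads per Ensembl gene with htseq-count and deposited raw counts for each library, which start here as whole numbers. Reads outside genes and reads without a unique alignment stayed out of the totals. Between 2127415 and 3005145 counts per library in C1H and C1HDT set the precision, so that 3 counts were 0.998 to 1.41 CPM; these limits cover counting error only.

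Genes that reached 1 CPM in 4 or more of the 32 libraries were kept. Counts were scaled by TMM and fitted with edgeR 4.0.16 (R 4.3.3, limma 3.58.1) in 1 quasi-likelihood model with a coefficient per group, and C1HDT vs C1H, the differences of day 4 changes and C1HDT vs C1HV were tested as contrasts with Benjamini-Hochberg adjustment, which is the FDR given. Folds and log2 fold changes come from that fit, and means ± SD from CPM scaled by library size and TMM factor. Alternatives were RLE size factors, library size alone, DESeq2 1.42.0, 2 other count filters, a fit on the groups of the contrast only, a replicate block and each replicate left out.

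The groups, gene lists and tests were chosen with earlier results of these data known. Named genes were the members of the lists, the 10 largest increases and decreases (past the threshold, without overlap of libraries, mean log2 CPM of at least 3, protein-coding), the 5 most positive and 5 most negative of each further contrast, the 10 most abundant of C1HDT and 8 marker genes. Some genes that this rule names are not reported here. Malat1, Gm42418 and the liver list were chosen after their values were seen. Promoter windows were taken from RefSeq (GRCm38.p6), searched on both strands for AGATAA and CTTTGAT. Same-numbered libraries of C1H and C1HDT did not deviate together across genes (mean correlation -0.00847), so the replicate number was not used as a block.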

Additional observations from a re-analysis of the deposited data

Results flagged for a closer look

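Of 552 sets of 4 libraries, a gene named above in C1H or in C1HDT, 32 held a library that stood apart from the other 3 by Dixon's criterion, where chance alone marks about 1 in 20 sets. C1H replicate 1 stood above the others for Lamc1 at 339.7 and Mvd at 359 CPM and below them for Foxa2 at 1.7 and Tdgf1 at 528 CPM. C1H replicate 2 stood above the others for Dusp6 at 4.53 and Id4 at 16 CPM. C1H replicate 3 stood above the others for Cldn6 at 2.93 CPM and below them for Ccnd1 at 14.3, Kdr at 5.86 and Rpl13 at 3466 CPM. C1H replicate 4 stood above the others for Dppa4 at 252 and Rps20 at 8821 CPM and below them for Pgk1 at 0.42 CPM. C1HDT replicate 1 stood above the others for Gbx2 at 15.6, Malat1 at 1247, Prdm14 at 2.72 and Zfp42 at 62.9 CPM and below them for Mcm2 at 253 CPM. C1HDT replicate 2 stood above the others for Agrn at 97.9 CPM and below them for Ddr2 at 1.43 and Pga5 at 1.43 CPM. C1HDT replicate 4 stood above the others for Hoxb2 at 4.77 and Rpl8 at 4417 CPM and below them for Gsk3b at 187 and Zeb1 at 43.9 CPM. A further set of marks came from genes with a single count or so in 1 library, and these were Cubn at 0.341 CPM in C1H replicate 1, Myc at 0.341 CPM in C1H replicate 1, Fgf8 at 0.349 CPM in C1H replicate 2, Sox7 at 0.349 CPM in C1H replicate 2, Stra6 at 0.366 CPM in C1H replicate 3, Mixl1 at 0.34 CPM in C1HDT replicate 1 and Aldh1a3 at 0.478 CPM in C1HDT replicate 2. In C1HDT replicate 1 the naive genes Prdm14, Zfp42 and Gbx2 and the nuclear RNA Malat1 all lay above the other 3 libraries, and what the library shares across them was not tested.

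The day 4 change differed from that of the knockout without dox in 3852 genes and from that of the middle fraction in 156, by the interaction term of the edgeR fit. On the log2 scale, the difference from the knockout was positive for Aldoc (2.71), Col4a1 (4.44), Col4a2 (5.08), Dab2 (4.25), Etv4 (1.68), Fgf3 (2.69), Fn1 (0.78), Gata6 (2.64), Lama1 (5.44), Lamb1 (2.26), Lamc1 (2.12), Nid1 (1.20), Pfkl (2.05), Pth1r (4.97), Sparc (4.71) and Spink1 (6.72), and negative for Arhgef26 (-3.23), Dazl (-2.97), Ddx4 (-2.16), Nr0b1 (-2.31), Spry2 (-1.40), Stra8 (-4.07), Sycp1 (-5.07), Sycp2 (-3.96), Sycp3 (-1.47), Taf7l (-4.32) and Zfp42 (-0.97). Esrrb (-0.50), Pou3f1 (-1.68) and Prdm14 (-1.69) were negative too. The difference passed upward as well for Sox17, Fgf10 and Fgfr3, which were at the floor in C1T and are left without a size. Against the middle fraction the difference was positive for Dnajc30 (1.24), Hspb6 (1.08), Mcm5 (0.38), Otx2 (0.57), Pigf (1.29), Ppdpf (1.33), Rps20 (0.37), Slc7a3 (0.72) and Slc7a7 (1.44), and negative for AC168977.1 (-1.55), Ctnnb1 (-1.71), Stox2 (-1.01), Trappc8 (-1.03) and Usp17lc (-1.41). The knockout at day 0 had no dox, so that the starting points differ as well as the day 4 states, as Sycp1 and Taf7l show.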

How the results depend on the processing

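For C1HDT vs C1H the count of 8517 genes lay between 6509 and 8545 under the 7 other settings and between 8027 and 8174 as each library was left out. With genes of at least 1 CPM in every library only, 139 genes were higher by more than 2 on the log2 scale and 243 lower. Scaling by library size alone moved the median of all genes from -0.064 to -0.139, RLE factors to -0.101 and DESeq2 to -0.101, and the share of calls that were higher from 47.2% to 42.7%, 44.9% and 45.5%. The difference from the knockout's change was called in between 3410 and 3989 genes under other settings, and C1HDT vs C1HV in between 2287 and 2428 under other settings and between 1744 and 2382 with 1 library left out.

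The difference from the middle fraction was the least stable. Its 115 upward calls became 71 with library size only, and its 41 downward calls 82 with DESeq2 and 62 with only the groups of the contrast. Leaving out 1 library gave between 46 and 210 calls in all, between 35 and 124 upward and between 11 and 86 downward, and the cause was not tested.

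The replicate numbers pair no cultures by their labels. A replicate block gave 8446 calls for C1HDT vs C1H, 3821 for the difference from the knockout, 129 for that from the middle fraction and 2404 for C1HDT vs C1HV, and same-numbered libraries had correlations of deviations between -0.0146 and 0.00387 against -0.0133 and 0.0155 for different numbers.

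For single genes of C1HDT vs C1H no value that passed, as reported or under the alternative, changed sign under any alternative, while some values near 0 that did not pass did. Among the named genes, 62 lost their call and 38 gained one under at least 1 alternative. In the difference from the knockout and in C1HDT vs C1HV none of the 10 named genes each lost its call, while in the difference from the middle fraction 8 did, genes without an adjusted p from DESeq2 left out there. Of the genes at the floor of either group, fitted changes depend on the prior count, and their folds in the report are given as bounds.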
